A study of Mus musculus with 31 samples.

Results

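The genes described here are 10 markers of macrophages and of antigen presentation by major histocompatibility complex (MHC) class II, out of 55379 genes counted in each of 31 mammary gland libraries. They were matched by their mouse symbol and fall into 5 genes of the class II system (H2-Aa, H2-Ab1, H2-Eb1, Cd74 and Ciita) and 5 genes that are used as macrophage or monocyte markers (Adgre1, Csf1r, Mrc1, Cd14 and Lyz2). All 10 passed the filter on low counts that left 14362 genes for testing.

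The study asked how the antidepressant fluoxetine, an inhibitor of serotonin reuptake, and dietary folic acid (FA), given around birth, act on the mammary gland of the mother. All animals were C57BL/6J dams, mated from 6 weeks of age, and the diet, begun 2 weeks earlier, held FA at 4 mg/kg (breeder diet) or 24 mg/kg (FA diet). Intraperitoneal fluoxetine at 20 mg per kg body weight, or saline alone, was a daily treatment that started on day 13 of gestation, and RNA came from glands on day 10 of lactation. By the sample labels, the libraries came from 8 dams on breeder diet + saline, 7 on breeder diet + fluoxetine, 8 on FA diet + saline and 8 on FA diet + fluoxetine, and the dams carry the numbers of their labels here. The methods of the paper give the sizes of the fluoxetine groups the other way round, which was not resolved. Total counts per library ran from 15412542 to 36000439.

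Class II molecules are pairs of an alpha and a beta chain that carry peptides from engulfed proteins to the cell surface, where CD4 T cells read them. The invariant chain, encoded by Cd74, holds the empty pair together and guides it to the endosome, and the transactivator CIITA switches the whole gene set on. Macrophages, dendritic cells and B cells are the usual sources of class II, and in the mammary gland macrophages lie along the ducts and alveoli and in the stroma throughout pregnancy, lactation and involution.

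One library stood apart before any comparison, that of dam 3 on FA diet + fluoxetine. Its 20 most abundant genes of the series took 39.3% of its counts, against 60.5% to 81.0% in the other 30 libraries. The secretory epithelium list (8 genes, led by the milk protein gene Wap) summed to 40018 CPM (counts relative to library size, after scaling by the trimmed mean of M-values, TMM) in this dam and to a median of 506918 CPM in the others. Of its 8 genes 7 were lower in this dam, Krt8 only slightly (59.0 against 60.3 CPM), and Krt18 was higher (149 against 65.0 CPM). The fibroblast list (6 of 6 genes higher in this dam, led by Col3a1) summed to 937 CPM against a median of 125.8 CPM and a highest value of 296 CPM in the others. Acta1, Ckm and Myh4 of skeletal muscle had no count in it. Little muscle RNA was not particular to this dam. The list summed to 0.532 CPM in dam 6 on breeder diet + fluoxetine and 0.607 CPM in dam 2 on FA diet + fluoxetine, and reached 5166 CPM elsewhere. Of the members, 9 of 10 had their highest level of the series in this dam, so that most of the member values it enters are given with and without it.

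**Figure D1:**
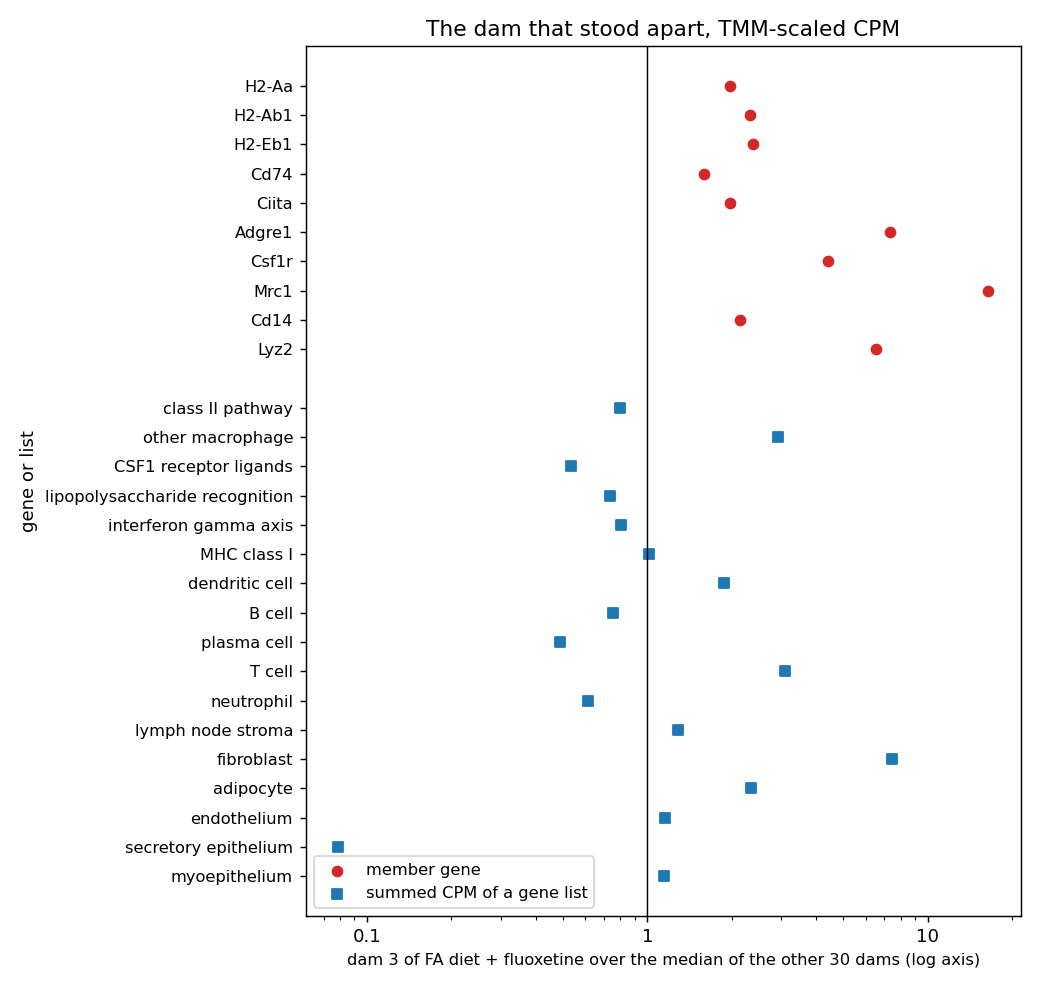
Level of each member gene (circles) and summed level of each gene list (squares) in dam 3 on FA diet + fluoxetine, divided by the median of the other 30 dams, on a log axis of TMM-scaled CPM. Mrc1 lies farthest to the right at 16.4, the fibroblast list stands at 7.44, and the secretory epithelium list lies farthest to the left at 0.0789; skeletal muscle, at 0.227 CPM against 208 CPM, is not drawn.

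Among the members, this dam differed most in Mrc1, Adgre1, Lyz2 and Csf1r. Its level divided by the median of the other 30 dams was 16.4 for Mrc1, 7.30 for Adgre1, 6.51 for Lyz2 and 4.42 for Csf1r. For Cd14 the ratio was 2.13, and for the class II genes it lay between 1.59 for Cd74 and 2.38 for H2-Eb1. The scaling matters for the size of these ratios, because the TMM factor of this library was 3.04 and those of the others lay between 0.716 and 1.57. On CPM from the library total alone the ratio was 53.2 for Mrc1 and 4.85 for Cd74, and the order of these genes at both ends was the same. The scaling also bears on the list sums and single genes given for this dam. Several that lie below the median after TMM would lie above it on library totals. In bulk tissue a larger number of cells of a type and more RNA per cell cannot be told apart, and the part that the stromal makeup of this library has in its member levels was not tested.

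To compare genes with each other, levels were expressed as TPM, a share of all transcripts after division by exon length. TPM carries no TMM scaling, so where dams or groups are compared in TPM the values also move with the makeup of the whole library. Cd74 had the highest median of the members over the 31 dams, with 91.9 TPM, followed by Cd14 with 51.1 TPM, H2-Eb1 with 32.7 TPM, H2-Ab1 with 32.1 TPM, H2-Aa with 18.9 TPM and Lyz2 with 8.35 TPM. The surface receptors of macrophages were far lower, with medians of 1.83 TPM for Csf1r, 0.712 TPM for Adgre1 and 0.440 TPM for Mrc1. Ciita was lowest, at 0.261 TPM.

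The class II chains lie together on chromosome 17 of GRCm39. H2-Ab1 (ENSMUSG00000073421), a beta chain of the I-A molecule, occupies chr17:34476663-34488393 on the plus strand, and its partner H2-Aa (ENSMUSG00000036594), the alpha chain, occupies chr17:34493404-34506798 on the minus strand. H2-Eb1 (ENSMUSG00000060586), the beta chain of I-E, occupies chr17:34504236-34535648 on the plus strand. The annotated spans of H2-Aa and H2-Eb1 overlap by 2563 bases and their exons by 118 bases, and reads from the overlap cannot be told apart where the strand is not used. H2-Ea, the alpha partner of H2-Eb1, had 0 counts in all 31 libraries, which is the known state of the b haplotype of C57BL/6J mice, where the I-E molecule is not made.

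H2-Ab1 ranged from 30.7 to 43.7 CPM with a median of 34.5 CPM on breeder diet + saline, from 34.5 to 45.2 CPM with a median of 37.5 CPM on breeder diet + fluoxetine, and from 33.2 to 55.7 CPM with a median of 46.0 CPM on FA diet + saline. On FA diet + fluoxetine it ranged from 28.7 to 87.0 CPM with a median of 36.5 CPM, and without dam 3 from 28.7 to 47.4 CPM with a median of 35.8 CPM. On this scale the FA diet + saline dams held the upper end once dam 3 was set aside, but every group overlapped with every other. The TMM factors of 7 of these 8 libraries were 0.990 or lower, and in TPM the H2-Ab1 median was 33.2 on FA diet + saline and 33.6 on breeder diet + saline. H2-Aa ranged from 27.1 to 39.3 CPM with a median of 34.4 CPM on breeder diet + saline, from 17.7 to 47.9 CPM with a median of 37.2 CPM on breeder diet + fluoxetine, from 35.3 to 53.7 CPM with a median of 38.4 CPM on FA diet + saline and from 23.3 to 71.8 CPM with a median of 35.4 CPM on FA diet + fluoxetine, or up to 36.7 CPM with a median of 34.5 CPM there without dam 3. For H2-Eb1 the same groups gave 31.1 to 45.04 CPM (median 35.1), 22.2 to 47.3 CPM (median 35.6), 35.2 to 54.1 CPM (median 41.6) and 28.1 to 85.4 CPM (median 34.3), the last ending at 44.2 CPM with a median of 32.9 CPM without dam 3. Both genes overlapped between all groups. Dam 9 on breeder diet + fluoxetine had the lowest H2-Aa (17.7 CPM), H2-Eb1 (22.2 CPM) and Cd74 (66.0 CPM) of the series, and dam 3 on FA diet + fluoxetine the highest.

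Cd74 (ENSMUSG00000024610, chr18:60936899-60945731, plus strand) behaved much like the chains it escorts. It ranged from 83.8 to 117 CPM with a median of 98.6 CPM on breeder diet + saline and from 66.0 to 115 CPM with a median of 104.8 CPM on breeder diet + fluoxetine. On FA diet + saline it ranged from 91.1 to 163 CPM with a median of 116 CPM, and on FA diet + fluoxetine from 76.6 to 164 CPM with a median of 103 CPM. Dam 1 on FA diet + saline, at 163 CPM, came close to dam 3 on FA diet + fluoxetine, and without dam 3 the latter group ended at 127 CPM with a median of 102 CPM. The groups overlapped.

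Ciita (ENSMUSG00000022504, chr16:10297923-10347694, plus strand) was measured on few counts, 10 to 145 per library. It ranged from 0.666 to 2.33 CPM with a median of 1.38 CPM on breeder diet + saline, from 0.795 to 3.23 CPM with a median of 1.38 CPM on breeder diet + fluoxetine and from 0.879 to 3.06 CPM with a median of 1.46 CPM on FA diet + saline. On FA diet + fluoxetine it ranged from 0.434 to 2.53 CPM with a median of 0.906 CPM, and without dam 3 up to 1.31 CPM with a median of 0.794 CPM. On this scale the 7 other dams on FA diet + fluoxetine all lay below the median of every other group, and within or below its range. In TPM dam 4 of these, at 0.261, lay above the FA diet + saline median of 0.239. Dam 9 on breeder diet + fluoxetine, lowest for 3 of its target genes, had the highest Ciita level of all dams after TMM scaling, at 3.23 CPM. In TPM it had 0.332, and dam 3 on FA diet + fluoxetine was highest with 1.25.

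Adgre1 (ENSMUSG00000004730, chr17:57665573-57790527, plus strand) encodes F4/80, the classical surface marker of mouse macrophages. It rested on 4 to 67 counts per library outside dam 3, which had 494. It ranged from 0.440 to 2.04 CPM with a median of 0.986 CPM on breeder diet + saline, from 0.586 to 2.64 CPM with a median of 1.24 CPM on breeder diet + fluoxetine and from 0.308 to 2.15 CPM with a median of 1.79 CPM on FA diet + saline. FA diet + fluoxetine gave 0.199 to 8.63 CPM with a median of 1.03 CPM, and up to 1.86 CPM with a median of 0.751 CPM without dam 3. Both FA diet groups reached lower than either breeder diet group, and the ranges of all groups overlapped.

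Csf1r (ENSMUSG00000024621, chr18:61229714-61266535, plus strand) is the receptor for the growth factors CSF1 and IL-34, on which macrophages depend for survival. It ranged from 5.27 to 7.17 CPM with a median of 6.18 CPM on breeder diet + saline, from 4.63 to 8.55 CPM with a median of 6.58 CPM on breeder diet + fluoxetine and from 5.50 to 10.4 CPM with a median of 7.11 CPM on FA diet + saline. On FA diet + fluoxetine the range was 4.51 to 27.7 CPM and the median 5.46 CPM, and without dam 3 it was 4.51 to 9.65 CPM with a median of 5.31 CPM. Dam 5 came second to dam 3 in that group, its 6 other dams lay below the median of every other group, and the ranges overlapped. In TPM dam 4 of the group, at 1.871, lay above the medians of breeder diet + fluoxetine (1.747) and FA diet + saline (1.859).

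Mrc1 (ENSMUSG00000026712, chr2:14234151-14336926, plus strand) encodes the mannose receptor CD206 of tissue-resident macrophages. It ranged from 1.05 to 2.80 CPM with a median of 1.72 CPM on breeder diet + saline, from 0.947 to 2.91 CPM with a median of 1.88 CPM on breeder diet + fluoxetine, and from 0.968 to 2.07 CPM with a median of 1.55 CPM on FA diet + saline. FA diet + fluoxetine started at 0.607 CPM, with a median of 1.55 CPM, or 1.503 CPM without dam 3. Dam 3 had 26.9 CPM, from 1537 counts, and the highest of the other 30 dams, dam 6 of the same group, had 2.98 CPM. Apart from dam 3 the groups covered much the same range, from 0.607 to 2.98 CPM.

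Cd14 (ENSMUSG00000051439, chr18:36858120-36859851, minus strand) encodes the coreceptor that hands bacterial lipopolysaccharide to TLR4, and is also made by cells other than macrophages. It spread widely within every group, from 17.6 to 55.4 CPM on breeder diet + saline, from 15.2 to 60.4 CPM on breeder diet + fluoxetine, from 19.9 to 49.5 CPM on FA diet + saline and from 13.0 to 88.3 CPM on FA diet + fluoxetine. The medians were 37.9, 42.4, 38.1 and 52.1 CPM, and the last became 45.4 CPM, with a highest value of 71.6 CPM, without dam 3. High and low dams occurred in every group. Over the 30 other dams its coefficient of variation was 41.8%, above the 16.7% to 19.8% of H2-Ab1, Cd74, H2-Eb1 and H2-Aa and below the 46.6% of Ciita and 49.1% of Adgre1.

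Lyz2 (ENSMUSG00000069516, chr10:117111557-117118346, minus strand) encodes lysozyme M of macrophages and granulocytes. It ranged from 7.09 to 13.7 CPM with a median of 13.1 CPM on breeder diet + saline, and from 9.58 to 29.3 CPM with a median of 12.6 CPM on breeder diet + fluoxetine, where dams 13 and 5 were high. It ranged from 11.97 to 19.7 CPM with a median of 15.03 CPM on FA diet + saline. On FA diet + fluoxetine it ranged from 7.67 to 85.1 CPM with a median of 10.97 CPM, and without dam 3 from 7.67 to 13.8 CPM with a median of 10.6 CPM. Set aside dam 3, and 6 of 7 dams of that group lay below the lowest dam on FA diet + saline. This did not hold in TPM, where that lowest dam, dam 11, had 2.55 and the 7 dams had 5.30 to 7.69. Its neighbour Lyz1 is a near copy with a median of 0.537 CPM, and how reads shared by the pair were assigned is uncertain.

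**Figure D2:**
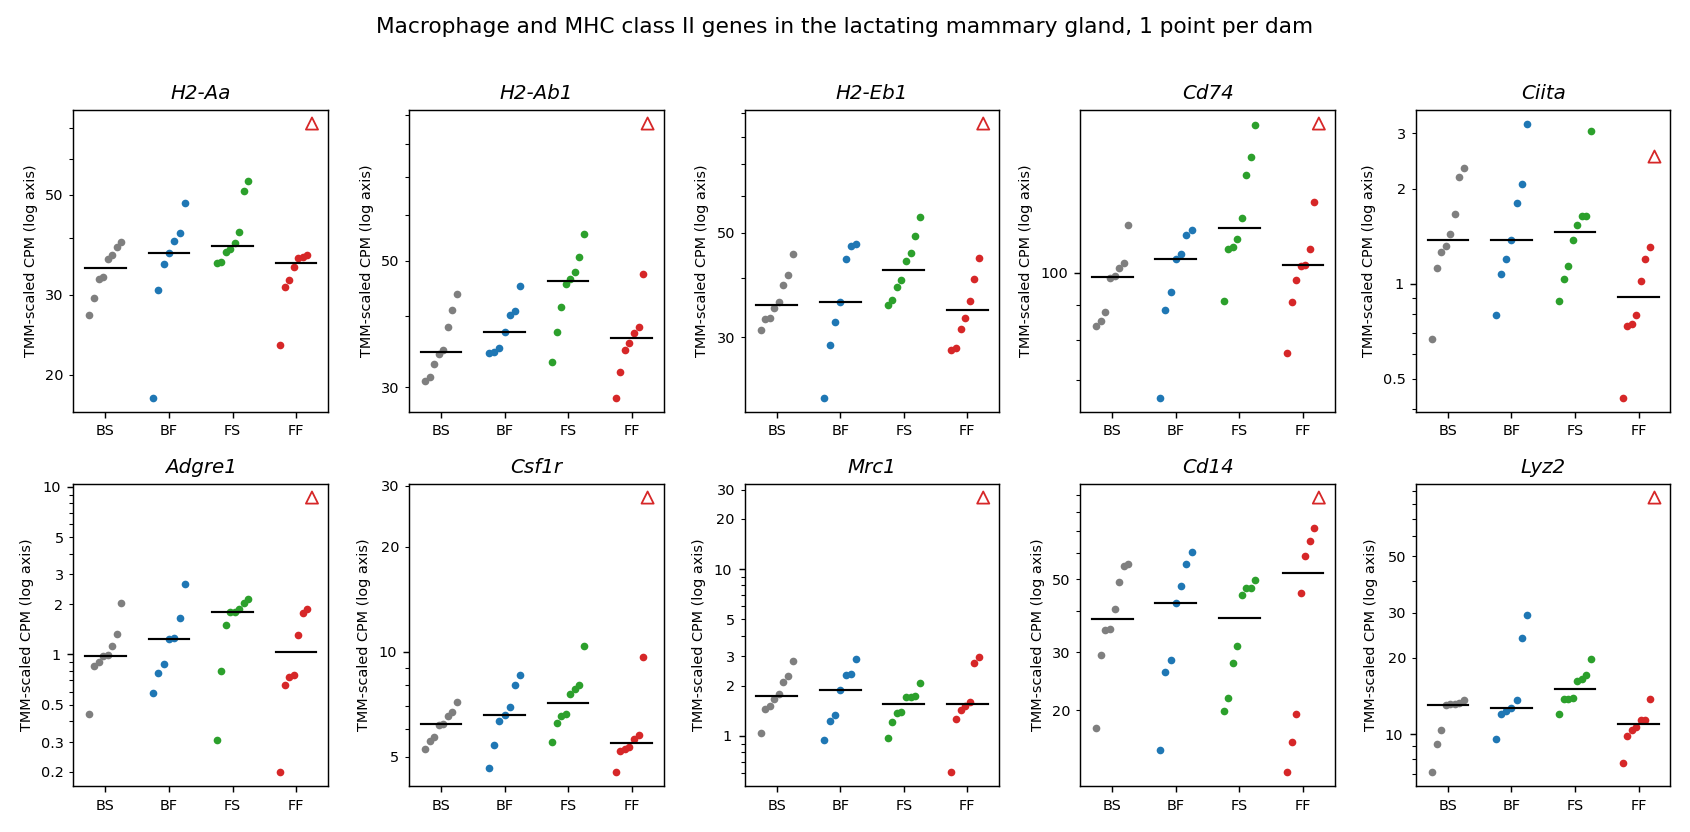
TMM-scaled CPM of each member on a log axis, with 1 point per dam, for breeder diet + saline (BS, 8 dams), breeder diet + fluoxetine (BF, 7), FA diet + saline (FS, 8) and FA diet + fluoxetine (FF, 8). Lines are group medians and the open triangle is dam 3 on FA diet + fluoxetine, which is highest for every member but Ciita, where dam 9 of BF is higher at 3.23 CPM.

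For fluoxetine against saline over both diets, 0 of 10 members passed an FDR of 10% in the quasi-likelihood test of edgeR, where 3 of 14362 genes did (0.0209%). The 3 genes, Elovl6, Pgm5 and Serhl, are named here after their values were seen. An unadjusted p of 0.05 or below was found for 1 member, Mrc1, against 9.92% of all genes. The likelihood ratio test of edgeR and DESeq2 also called 0 members, and at an unadjusted p of 0.05 or below they counted 1 and 0, against 1423 and 1559 of the 14362 genes. By default DESeq2 replaces extreme counts in groups of this size, here and in the comparisons below. Which counts of dam 3 it replaced was not examined. Mrc1 had a log2 fold change of 0.86 (SE 0.37, adjusted p = 0.461), which was 0.10 (SE 0.20, adjusted p = 0.918) without dam 3.

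The other macrophage genes followed the same dam. Lyz2 had a log2 fold change for fluoxetine of 0.44 (SE 0.27) with all dams and -0.03 (SE 0.13) without dam 3. Adgre1 moved from 0.33 (SE 0.35) to -0.15 (SE 0.28), Csf1r from 0.18 (SE 0.19) to -0.11 (SE 0.11) and Cd14 from 0.19 (SE 0.24) to 0.08 (SE 0.25). For the class II genes the median was -0.03 with all dams and of -0.15 without dam 3, with Ciita lowest at -0.17 (SE 0.24) and -0.34 (SE 0.22). Over all genes tested the median was 0.02 and -0.01. Without dam 3 the test again called 0 members, with 0.0211% of 14247 genes called, and 0 members had an unadjusted p of 0.05 or below, against 9.21% of all genes.

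For the FA diet against the breeder diet, 9 of 10 members had a positive log2 fold change, with a median of 0.24 against 0.02 over all genes, but 0 members and 0 of 14362 genes (0%) passed in edgeR. Cd74 and H2-Ab1 were the 2 members with an unadjusted p of 0.05 or below, against 5.08% of all genes. The likelihood ratio test counted 1 member at that level and DESeq2 2, against 703 and 796 of all genes, and both called 0. Cd74 had a log2 fold change of 0.25 (SE 0.10, adjusted p = 0.933) and H2-Ab1 of 0.24 (SE 0.12, adjusted p = 0.933). Without dam 3 they were 0.18 (SE 0.09) and 0.12 (SE 0.08), 6 of 10 members were positive, the median was 0.05, and 1 member, Cd74, had an unadjusted p of 0.05 or below, against 6.99% of all genes.

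The FA diet was also compared within each drug. Under saline, where dam 3 plays no part in the levels, 8 of 10 members were positive with a median log2 fold change of 0.27, and all 5 class II genes were, led by Cd74 at 0.35 (SE 0.14, adjusted p = 0.812) and H2-Ab1 at 0.32 (SE 0.16, adjusted p = 0.817). Group medians in TPM did not all follow these signs. For H2-Aa they were 18.99 on FA diet + saline against 19.09 on breeder diet + saline, and for H2-Eb1 31.9 against 34.2. H2-Ab1 (33.2 against 33.6), Ciita (0.239 against 0.2995), Csf1r (1.859 against 1.951) and Lyz2 (8.73 against 8.97) were also lower in TPM. Cd74 (98.97 against 95.98) and Adgre1 (0.812 against 0.688) were higher. With all dams 0 members passed and 1 had an unadjusted p of 0.05 or below, against 6.09% of all genes. Fitted without dam 3, which narrows the spread that all groups share, 0 passed and 3 members did so (H2-Ab1, Cd74 and Lyz2, all higher on the FA diet), against 8.75% of all genes, 4.67% being higher ones. Under fluoxetine the counts at that level were 1 with all dams, against 3.75% (Mrc1, higher), and 2 without dam 3, against 2.51% (Ciita and Lyz2, both lower on the FA diet), and the test called 0 members in both. The likelihood ratio test and DESeq2, on all dams, called 0 in either comparison, and counted 1 and 1 member at that level under saline, against 818 and 970 of all genes, and 1 and 0 under fluoxetine, against 566 and 576. Some other lists were also mostly positive here. Under saline, with all dams, 4 of 4 skeletal muscle genes were positive (median log2 fold change 0.86). So were 7 of 8 secretory epithelium genes (median 0.13, with 1, Krt8, at an unadjusted p of 0.05 or below). Of the plasma cell genes 2 of 6 were. Of the fibroblast genes 6 of 6 were positive for the FA diet over both drugs (median log2 fold change 0.55, with 2 at an unadjusted p of 0.05 or below). Without dam 3, 4 of 6 were positive with a median of 0.02. Under saline 6 of 6 were (median 0.37 with all dams and without dam 3). Of the myoepithelium genes 4 of 5 were positive over both drugs (median 0.17, with 2 at an unadjusted p of 0.05 or below). Without dam 3, 3 of 5 were (median 0.16), again with 2 at that level. None was called, and their part in the member values was not tested.

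Fluoxetine within each diet gave a different picture for the diets, although the difference itself did not pass. On the breeder diet, 9 of 10 members were positive with a median log2 fold change of 0.08. None of the 10 passed and 0 had an unadjusted p of 0.05 or below, against 4.39% of all genes; without dam 3 in the shared fit 1 did, against 6.12%. The likelihood ratio test and DESeq2 called 0 members and counted 0 at that level, against 615 and 708 of all genes. The 1 member without dam 3 was Lyz2, at 0.49 (SE 0.39) with all dams and 0.48 (SE 0.18, adjusted p = 0.759) without dam 3, and it became 0.28 when dam 13 on breeder diet + fluoxetine was left out instead. Dam 13 had the highest TMM factor of the other 30 libraries, 1.57, and their lowest secretory epithelium sum, 215356 CPM. In dams 5 and 13, the dams of that group with most Lyz2, the neutrophil list summed to 5.98 and 3.21 CPM against a median of 1.19 CPM. A high sum also occurred without high Lyz2, as in dam 6 on FA diet + fluoxetine (3.40 CPM, with Lyz2 at 13.8 CPM). The part of the neutrophil values in the Lyz2 result was not tested.

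On the FA diet, the fluoxetine comparison rested on dam 3. With all dams 5 of 10 members were positive, the 5 macrophage genes, and Mrc1 had a log2 fold change of 1.69 (SE 0.52, adjusted p = 0.416). The test called 0 members, and 1 had an unadjusted p of 0.05 or below, against 9.98% of all genes (1 in the likelihood ratio test and 0 in DESeq2, against 1431 and 1537 of all genes, and both called 0). Without dam 3, 8 of 10 were negative and the median log2 fold change was -0.33, against -0.01 over all genes. Mrc1 then stood at 0.17 (SE 0.28, adjusted p = 0.946).

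Without dam 3, 7 of 10 members had an unadjusted p of 0.05 or below for fluoxetine on the FA diet, all of them lower under fluoxetine, against 6.11% of all genes and 3.1% that were lower. The members were all 5 class II genes, Csf1r and Lyz2. Their log2 fold changes were -0.34 (SE 0.14) for H2-Aa, -0.32 (SE 0.11) for H2-Ab1, -0.33 (SE 0.14) for H2-Eb1, -0.31 (SE 0.13) for Cd74, -0.80 (SE 0.32) for Ciita, -0.33 (SE 0.16) for Csf1r and -0.54 (SE 0.19) for Lyz2. None passed over the 14247 genes tested, with adjusted p from 0.764 to 0.804. The fibroblast genes were lower in the same fit as well, with a larger median change that is given with the structural lists below. Members that vary together from dam to dam are not independent, and H2-Aa, H2-Ab1, H2-Eb1 and Cd74 did so. Lyz2 also varied with H2-Aa, H2-Eb1, Cd74 and Csf1r, and Csf1r with Cd74, so these members are not separate support. The likelihood ratio test and DESeq2 were not run without dam 3.

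**Figure D3:**
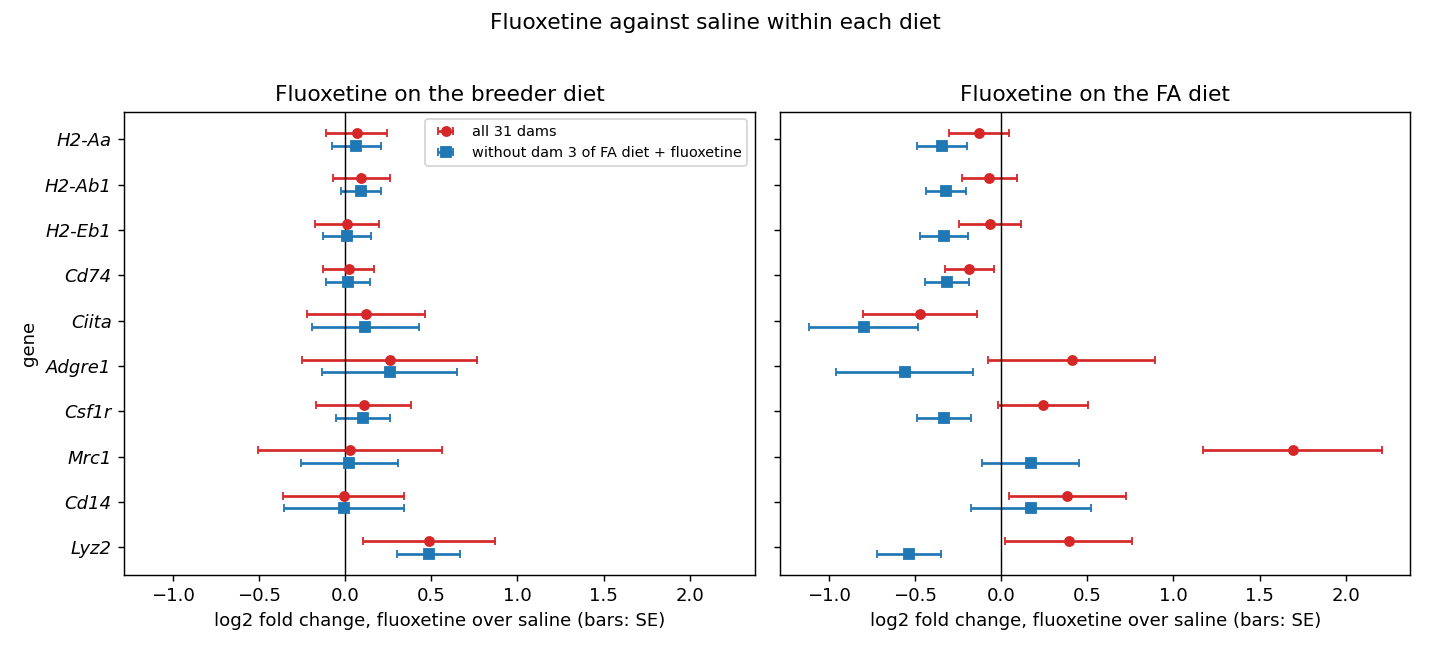
Log2 fold change of each member for fluoxetine against saline on the breeder diet (left) and on the FA diet (right), with bars of 1 SE, fitted with all 31 dams (circles) and without dam 3 on FA diet + fluoxetine (squares). On the FA diet Mrc1 moves from 1.69 to 0.17 and Lyz2 from 0.39 to -0.54, while the values on the breeder diet stay in place.

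For the interaction of drug and diet, edgeR called 0 of 10 members and 0 of 14362 genes (0%). With all dams 1 member, Mrc1, had an unadjusted p of 0.05 or below, against 3.84% of all genes, with a log2 difference of 1.66 (SE 0.74, adjusted p = 0.977), which was 0.15 (SE 0.40, adjusted p = 0.997) without dam 3. The likelihood ratio test counted 1 and DESeq2 0 at that level, against 558 and 639 of all genes, and both called 0. Without dam 3 there were 3, Lyz2, H2-Ab1 and Ciita, all negative, against 3.48% of all genes. Lyz2 had a log2 difference of -1.02 (SE 0.26, adjusted p = 0.997) without dam 3 and of -0.10 (SE 0.53, adjusted p = 0.993) with it.

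Levels of the class II chains and Cd74 were correlated from dam to dam, with or without dam 3, but not equally. Of 45 pairs of members, 31 had a Pearson r with an adjusted permutation p of 0.05 or below over 31 dams, and 12 over the 30 dams without dam 3. The pairs among H2-Aa, H2-Ab1, H2-Eb1 and Cd74 made up 6 of those 12. H2-Aa and H2-Eb1 had r = 0.867 over 30 dams (permutation p = 1e-05, the smallest that the resamples can give, adjusted p = 0.000112) and Spearman's rho of 0.826 (permutation p = 1e-05, adjusted p = 0.000225), with r = 0.904 over 31 dams and 0.824 when the 2 of the 31 dams farthest from the median of H2-Aa were left out. H2-Ab1 and Cd74 had r = 0.838 (permutation p = 1e-05, adjusted p = 0.000112) and rho = 0.860 (permutation p = 1e-05, adjusted p = 0.000225) over 30 dams, with r = 0.841 over 31 and 0.798 without the 2 farthest dams. The pairs of H2-Ab1 with the other chains were weaker over 30 dams, with r = 0.548 for H2-Aa (permutation p = 0.00168, adjusted p = 0.0096) and 0.495 for H2-Eb1 (permutation p = 0.00506, adjusted p = 0.0207), or 0.421 and 0.363 centred on the group means.

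No pair of Ciita with a gene it controls passed at an adjusted permutation p of 0.05, in either set of dams. Over 30 dams its r with H2-Aa was -0.355 (permutation p = 0.0551, adjusted p = 0.113; rho = -0.176, permutation p = 0.353, adjusted p = 0.496), and with H2-Ab1 it was 0.109 (permutation p = 0.568, adjusted p = 0.690; rho = 0.0621, permutation p = 0.743, adjusted p = 0.778). Without the 2 dams farthest in H2-Aa and in H2-Ab1 these were -0.152 and 0.199. Centred on the group means, however, the r over 30 dams was -0.599 for H2-Aa and -0.509 for H2-Eb1, given here with no test, and dam 9 on breeder diet + fluoxetine, highest for Ciita and lowest for both, is among those dams.

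Lyz2 varied with genes of both kinds. Over 30 dams its r was 0.603 with H2-Eb1 (permutation p = 0.00044, adjusted p = 0.00396), 0.568 with H2-Aa (permutation p = 0.00192, adjusted p = 0.0096) and 0.515 with Cd74 (permutation p = 0.00401, adjusted p = 0.018), which with Cd74 and Csf1r made up the 4 pairs between class II and macrophage genes that passed. Over 30 dams Lyz2 and Adgre1 had r = 0.591 (permutation p = 0.00073, adjusted p = 0.00547; rho = 0.618, permutation p = 0.00032, adjusted p = 0.00191), and 0.610 without the 2 dams farthest in Adgre1. Lyz2 and Csf1r had r = 0.542 (permutation p = 0.00188, adjusted p = 0.0096; rho = 0.453, permutation p = 0.0125, adjusted p = 0.0374), and 0.526 without the 2 farthest dams. The relation of Csf1r and Mrc1 rested on dam 3, with r = 0.762 over 31 dams (permutation p = 0.00135, adjusted p = 0.00337; rho = 0.274) and 0.304 over 30 (permutation p = 0.102, adjusted p = 0.176; rho = 0.199, permutation p = 0.290, adjusted p = 0.451).

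Cd14 had no positive pair with another macrophage gene that passed. Over 31 dams it passed with H2-Aa (r = 0.463, permutation p = 0.00772, adjusted p = 0.0134) and H2-Eb1 (r = 0.382, permutation p = 0.0331, adjusted p = 0.0481). Over 30 dams Cd14 passed with neither (r = 0.361, permutation p = 0.0477, adjusted p = 0.107, and r = 0.241, permutation p = 0.200, adjusted p = 0.273). Its r with Csf1r was 0.0206 over 31 dams (permutation p = 0.916, adjusted p = 0.916; rho = -0.385) and -0.431 over 30 (permutation p = 0.0175, adjusted p = 0.0606; rho = -0.528, permutation p = 0.00339, adjusted p = 0.0153), and -0.461 without the 2 dams farthest in Csf1r. Over 30 dams 6 of its 9 pairs with the other members had a negative r. Dams with more Csf1r thus tended to have less Cd14, apart from dam 3, which had the most of both. Centred on the group means, the r of Cd14 and Csf1r over 30 dams was -0.471, and that of H2-Aa and H2-Eb1 was 0.841.

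The genes whose log2 CPM was most like the mean of H2-Aa, H2-Ab1, H2-Eb1 and Cd74 over 31 dams were C1qc (r = 0.807), Lum (0.790), Tyrobp (0.738), Cyb5a (0.726) and Sh3bgrl (0.723). C1qc, a chain of complement C1q made by macrophages, and Tyrobp, an adaptor of myeloid receptors, are on the list of other macrophage genes, and Lum is a fibroblast matrix gene. Over 30 dams Tyrobp came first with 0.781 and C1qc sixth with 0.671, and Lum was not among the 10 genes listed first. The genes most like Adgre1, Csf1r and Mrc1 were Bgn (0.862), Igfbp4 (0.856), Apoe (0.847), Cxcl12 (0.836) and Dcn (0.835), of which Bgn and Dcn are matrix proteoglycans. Over 30 dams none of these 5 was among the first 10, and Fcer1g, a signalling chain of Fc receptors in myeloid cells, came first with 0.719. These values describe the libraries and carry no test, and 1 library sets the first ranking.

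The remaining genes of the class II pathway, from peptide loading to its regulators, were covered by 18 genes, of which 11 passed the filter and 0 were called in any contrast. Ctsl, a lysosomal protease, had the most counts, and Rfxank, a subunit of the factor that binds class II promoters, had the smallest p for fluoxetine (log2 fold change 0.30, SE 0.14, adjusted p = 0.489; 0.28 without dam 3). The list summed to 153 CPM in dam 3 against a median of 192 CPM in the other dams, while 11 of the 16 genes that could be compared were above their median there and H2-Oa, H2-Ob, H2-Ea and H2-Eb2 had no count in it. With a TMM factor of 3.04 for dam 3, CPM from the library total alone would put the list above that median. For fluoxetine its median log2 fold change was 0.002 with all dams and -0.04 without dam 3.

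Of 25 other macrophage genes, 23 passed the filter and 0 were called. In dam 3, 21 of the 24 genes that could be compared were above the median of the other dams, and the list summed to 284 CPM against a median of 97.1 CPM and a highest value of 122 CPM. C1qa had the most counts, with 54.9 CPM in dam 3 against a median of 18.4 CPM. The genes of resident perivascular macrophages Lyve1 and Cd163 had 6.50 and 16.0 CPM there against medians of 0.329 and 1.31 CPM, whereas Mertk had 1.75 CPM against 4.36 CPM, these 3 being named after their values were seen. For fluoxetine 17 of 23 were positive with all dams (median log2 fold change 0.17) and 10 of 23 without dam 3 (median -0.05). Maf had the smallest p for fluoxetine, with a log2 fold change of 0.69 (SE 0.30, adjusted p = 0.461), or 0.36 (SE 0.24) without dam 3.

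On the TMM scale, the lists of ligands and sensors around the members had sums near or below the median in dam 3. CPM from the library total alone would raise these sums above the medians given here, since the TMM factor of dam 3 was 3.04. The CSF1 receptor ligands Csf1 and Il34 summed to 11.01 CPM there against a median of 20.6 CPM, Csf1 having the most counts and Il34 the smaller p for fluoxetine (log2 fold change 0.24, SE 0.23, or 0.16 without dam 3). The lipopolysaccharide list (8 genes, 7 passing the filter, Lbp the most abundant) summed to 107 CPM against 145.6 CPM, and Myd88 had its smallest p for fluoxetine (log2 fold change 0.22, SE 0.11, adjusted p = 0.492, or 0.14 without dam 3). The interferon gamma list (8 genes, 6 passing) had its lowest sum in dam 3, 59.5 CPM against a median of 74.2 CPM, although 5 of the 7 genes that could be compared were above their median there and the sum was low through Ifngr1 (15.5 against 44.3 CPM). Ifng itself had 1 count in all 31 libraries together, while Ifngr1 had the most counts and the smallest p for fluoxetine (log2 fold change -0.12, SE 0.12, or -0.07 without dam 3). MHC class I (9 of 9 genes passing, H2-K1 the most abundant) summed to 577 CPM in dam 3 and to a median of 569 CPM in the others, and Psmb8 had its smallest p for fluoxetine (log2 fold change 0.18, SE 0.17, or 0.10 without dam 3). None of these genes was called in any contrast.

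Markers of other immune cells and of lymph node stroma were mostly scarce, among them those of dendritic cells and B cells, usual sources of class II. Of 9 dendritic cell genes 5 passed the filter, and the 9 summed to 12.9 CPM in dam 3 against a median of 6.87 CPM, though Itgax, which had the most counts, was lower there (2.45 against 3.89 CPM); Xcr1 and Ccr7 had no count in that dam. Of 8 B cell genes 2 passed, Cd79a and Cd79b, and the list summed to 1.24 CPM in dam 3 against a median of 1.65 CPM, and Ms4a1, Pax5, Cd22, Fcer2a and Cr2 were among the genes at 0 counts in that dam. Of 7 T cell genes 1 passed, Cd4, and the list summed to 3.34 CPM in dam 3 against a median of 1.08 CPM, although Cd3g, Cd8b1 and Trac had no count there. Neutrophil genes (10, of which Csf3r and S100a8 passed) summed to 0.734 CPM against 1.19 CPM, and lymph node stroma (4 genes, Prox1 passing) to 5.68 CPM against 4.42 CPM. Plasma cell genes were abundant, led by Igha, with a median of 1186 CPM over the 30 dams and 580 CPM in dam 3. The B cell, neutrophil and plasma cell sums of dam 3 were lower on the TMM scale, with its factor of 3.04. CPM from the library total alone would raise them above these medians.

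Smallest p-values for fluoxetine in these lists belonged to Zbtb46 (log2 fold change 0.57, SE 0.27, adjusted p = 0.483) for dendritic cells, Cd79b (0.31, SE 0.38), Cd4 (0.26, SE 0.59), S100a8 (1.24, SE 0.65, adjusted p = 0.529), Prox1 (-0.22, SE 0.20) and Mzb1 of plasma cells (-0.33, SE 0.53). Without dam 3 the values were 0.44 for Zbtb46, 0.28 for Cd79b, -0.20 for Cd4, which turned sign, 1.31 for S100a8, -0.23 for Prox1 and -0.32 for Mzb1. None passed. Which cells held the class II transcripts cannot be told from these bulk libraries.

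The structural lists show what else differed in the dam with the most macrophage RNA. Fabp4 led the adipocyte list (930 CPM in dam 3 against a median of 397 CPM, log2 fold change of Fabp4 for fluoxetine 0.42, SE 0.16, adjusted p = 0.417), Kdr the endothelium (45.7 against 39.6 CPM, Kdr itself 6.68 against 12.7 CPM, smallest p Vwf at 0.27, SE 0.25) and Acta2 the myoepithelium (406 against 354 CPM, Acta2 at -0.38, SE 0.13, adjusted p = 0.360). Krt18 had the smallest p of the secretory epithelium (0.24, SE 0.11, adjusted p = 0.479), Tnnt3 of skeletal muscle (0.09, SE 1.11), where Myh4 had the most counts, and Dcn of the fibroblasts (0.41, SE 0.32). Without dam 3, Dcn turned to -0.22, and the values were 0.23 for Fabp4, 0.13 for Vwf, -0.42 for Acta2, 0.14 for Krt18 and 0.19 for Tnnt3. Over both diets 6 of 6 fibroblast genes were lower under fluoxetine without dam 3, with a median of -0.49 and none called, and 5 had an unadjusted p of 0.05 or below, against 9.21% of all genes, whereas with all dams 4 of 6 were higher with a median of 0.07 and 0 at that level. On the FA diet they shared the pattern of the members. Without dam 3, 6 of 6 were lower under fluoxetine with a median log2 fold change of -0.87 and none passed, while with all dams 5 of 6 were higher with a median of 0.25. Whether the stromal share of the samples has a part in the member values on the FA diet was not tested.

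The promoters of 4 of the 10 members were in the RefSeq promoter table used here (GRCm38.p6, 300 bases each), those of H2-Aa, H2-Eb1, Mrc1 and Lyz2. They were searched on both strands for ACAGATG, letters found at the core of the class II X box, for CCAAT, the Y box, and for GAGGAA, a core bound by the macrophage factor PU.1. Among 32851 promoters of the table, 5.01% held the first, 37.4% the second, 28.3% the third, and 1.86% both the first and the second. H2-Aa held 1 match to ACAGATG and 1 to CCAAT, H2-Eb1 held 2 to CCAAT, Mrc1 held 3 to GAGGAA and 1 to CCAAT, and Lyz2 held none of the 3 motifs. In H2-Aa the first lay at bases 19 to 25 and the second at bases 203 to 207. Only these exact letters were searched, so an X box with other letters would be missed in H2-Aa and H2-Eb1. Whether the ACAGATG of H2-Aa belongs to its X box was not tested. The promoters of the chains that varied together, and that of the gene which differed most in dam 3, are shown with the matches on either strand in capitals, read along the strand of the gene. H2-Aa is at chr17:34287774-34288073 on the minus strand, H2-Eb1 at chr17:34305617-34305916 on the plus strand and Mrc1 at chr2:14229164-14229463 on the plus strand. A match is a description of letters, not of binding.
H2-Aa: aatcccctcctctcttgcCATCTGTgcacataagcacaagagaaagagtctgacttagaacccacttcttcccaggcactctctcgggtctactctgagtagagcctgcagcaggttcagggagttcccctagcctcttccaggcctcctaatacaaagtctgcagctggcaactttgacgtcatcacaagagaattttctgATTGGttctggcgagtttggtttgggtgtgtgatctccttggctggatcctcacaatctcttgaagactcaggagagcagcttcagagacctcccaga
H2-Eb1: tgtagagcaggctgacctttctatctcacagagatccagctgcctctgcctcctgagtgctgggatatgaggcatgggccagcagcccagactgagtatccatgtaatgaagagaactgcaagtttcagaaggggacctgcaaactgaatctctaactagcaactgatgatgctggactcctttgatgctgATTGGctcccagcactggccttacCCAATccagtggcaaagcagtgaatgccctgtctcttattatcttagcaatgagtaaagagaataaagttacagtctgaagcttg
Mrc1: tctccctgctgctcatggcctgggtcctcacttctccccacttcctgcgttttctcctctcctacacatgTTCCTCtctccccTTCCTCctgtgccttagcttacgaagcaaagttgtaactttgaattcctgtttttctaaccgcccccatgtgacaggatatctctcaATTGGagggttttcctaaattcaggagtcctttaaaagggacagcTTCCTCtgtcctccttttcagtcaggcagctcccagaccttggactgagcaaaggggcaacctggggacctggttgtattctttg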

How the data were processed

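The deposited files hold a raw count per gene for each library, as the authors made them with FastQC 0.11.7, Trim Galore 0.4.4, HISAT2 and HTSeq on GRCm39. The annotation release and the strand option of the counting are not given in the sources used here. Groups follow the sample labels. Of 55379 genes, 54712 were matched to GENCODE vM39, whose merged exon lengths gave TPM, and 667 were not.

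Tests were run over all genes in R 4.3.3 with edgeR 4.0.16: filterByExpr, TMM, a robust quasi-likelihood fit of the 4 groups and 7 contrasts, with p adjusted over all genes tested and an FDR of 10%. Contrasts within a diet or drug share samples with each other, so no overlap between them was computed. Alternatives were the likelihood ratio test, DESeq2 1.42.0, other normalizations and filters, no robust estimation, a replicate block and each dam left out. Correlations used log2 CPM (prior count 2) with 100000 permutations of dams, adjusted over 45 pairs.

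From each list were named the most abundant gene and that with the smallest p for fluoxetine, and for likeness the first 5 genes; others are said to be named after their values were seen. The members and lists were chosen with earlier results of these data known. The edgeR fit was run on simulated data first, for the fluoxetine contrast only.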

Additional observations from a re-analysis of the deposited data

Results flagged for a closer look

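Each group of each member was checked for a single extreme dam with Dixon's test on log2 CPM, 40 combinations in all, of which chance flags about 1 in 20. The check picked out 6, and in all of them the dam was dam 3 on FA diet + fluoxetine: H2-Aa (71.8 CPM), H2-Ab1 (87.0 CPM), H2-Eb1 (85.4 CPM), Csf1r (27.7 CPM), Mrc1 (26.9 CPM) and Lyz2 (85.1 CPM). The picks depend on the scale. On CPM without logs 9 passed, 8 of them dam 3, now with Ciita (2.53 CPM) and Adgre1 (8.63 CPM), and the other was Ciita in dam 10 on FA diet + saline (3.06 CPM). The cause was not tested.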

How the results depend on the processing

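No alternative called a member in any contrast. Signs of log2 fold changes did depend on the choices made. With a replicate block, which treats dams of the same number as paired, fluoxetine gave 0.0292 for H2-Aa, 0.0392 for H2-Eb1 and -0.0588 for Csf1r, FA gave -0.00200 for Mrc1 and -0.20 for Cd14, the interaction was -0.92 for Adgre1 and -0.31 for Cd14, and fluoxetine on the FA diet gave -0.13 for Adgre1 and -0.13 for Lyz2. The median r of 28 same-numbered pairs of dams was 0.0791 and that of other pairs -0.00699, and for 4 dams the closest dam of another group had their number, so the block was kept as an alternative only. DESeq2, which by default replaces extreme counts in groups of this size, gave -0.10 for Csf1r and fluoxetine and -0.18 for Mrc1 and FA. It gave -0.41 for Csf1r in the interaction and -0.30 for Csf1r and fluoxetine on the FA diet. In edgeR without dam 3 on FA diet + fluoxetine these values were -0.11, -0.18, -0.43 and -0.33. DESeq2 is thus not an alternative in which dam 3 is known to enter in full.

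Leaving out each dam in turn changed the sign of the log2 fold changes that follow, and for each of these the lowest value came without dam 3 on FA diet + fluoxetine. Fluoxetine ran from -0.14 to 0.0148 for H2-Aa, -0.11 to 0.0448 for H2-Ab1, -0.16 to 0.00727 for H2-Eb1, -0.15 to 0.43 for Adgre1, -0.11 to 0.22 for Csf1r and -0.0256 to 0.50 for Lyz2. FA ran from -0.18 to 0.66 for Mrc1, -0.0362 to 0.14 for Cd14 and -0.10 to 0.46 for Lyz2. The interaction ran from -0.82 to 0.43 for Adgre1, -0.43 to 0.23 for Csf1r and -1.02 to 0.11 for Lyz2. Fluoxetine on the FA diet ran from -0.56 to 0.58 for Adgre1, -0.33 to 0.34 for Csf1r and -0.54 to 0.51 for Lyz2.

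Without dam 3 the r of Cd14 was -0.0662 with Adgre1, -0.0934 with Lyz2, -0.431 with Csf1r, -0.0879 with H2-Ab1 and -0.361 with Mrc1, that of Ciita was -0.115 with Adgre1, -0.0796 with Lyz2 and -0.00916 with Mrc1, and that of H2-Eb1 and Mrc1 was -0.00186. Without the 2 farthest dams Cd14 gave -0.163 with H2-Ab1, 0.0466 with Ciita, -0.461 with Csf1r and -0.360 with Mrc1.

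The limits are those of bulk tissue with 1 library per dam and 7 or 8 dams a group. Ciita and Adgre1 rest on few counts, H2-Aa and H2-Eb1 share exonic bases, and Lyz1 and Lyz2 are near copies. The count of members at an unadjusted p of 0.05 or below on the FA diet depends on leaving out dam 3, a choice made with its values known.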
